A study of Rattus norvegicus with 15 samples.

Results

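The genes described here are the troponin and myosin light chain isoforms that mark slow and fast skeletal muscle fibres. They are 5 slow genes (Tnnt1, Tnni1, Tnnc1, Myl2 and Myl3) and 5 fast genes (Tnnt3, Tnni2, Tnnc2, Mylpf and Myl1), chosen by name, and they make up 10 of the 37991 genes in the count table. All 10 were among the 17201 genes with enough counts to test. RNA was measured in 15 libraries of multifidus, a paraspinal muscle, from wild type rats. The rats were male Sprague Dawley rats aged 12 weeks. The control group (2 libraries) had no surgery, and the surgery group (2 libraries) had a hemilaminectomy in which the left L5 spinal nerve was also ligated, with nothing injected afterwards. The pMT group (4 libraries) had this surgery and then 25 μg of plasma-derived mitochondria (pMT) of human origin at each of 2 sites in the left paraspinal muscle, 50 μg per rat, 2 weeks after surgery. Rats of the VitD group (3 libraries) were given cholecalciferol (vitamin D) at 150 μg in each site and 300 μg in all, and those of the pMT/VitD group (4 libraries) both agents at these doses. Tissue was taken 4 weeks after surgery in the groups whose times are stated; the sources used here state neither surgery nor times for VitD and pMT/VitD. A buffer-only group is not among these libraries, and the sources do not say whether each library came from a different rat.

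Troponin is the calcium switch of the thin filament. Its troponin C subunit binds calcium, troponin I holds back the actin-myosin interaction, and troponin T anchors both to tropomyosin. Each myosin head carries an essential and a regulatory light chain, and slow and fast fibres use different genes for every one of these proteins. Loss of nerve supply is known to move muscles away from their usual isoform pattern, and multifidus is a mixed muscle that holds both fibre types.

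Upstream sequence in RefSeq's table for the GRCr8 assembly was found for 6 of the 10 genes, and no entry was found for Tnnc1, Myl2, Tnnt3 and Mylpf. The troponin I pair and the essential light chain pair, Myl3 and Myl1, are shown because both partners have an entry and because Myl1 has 2 start sites, one for each of its known protein forms. Each run holds the 250 bases before the start site, and capitals mark matches to a motif on either strand. The E-box, which myogenic factors such as MyoD are known to bind, was searched as CANNTG. A muscle element named MCAT was searched as CATTCC, and the element at which the general transcription machinery assembles was searched as TATAAA. Sites of MEF2 and of serum response factor (CArG) were searched by their usual patterns. A match to one motif may overlap one to another, and such bases are capitals once.
Tnni1, slow troponin I, chr13:49781279-49781528, + strand: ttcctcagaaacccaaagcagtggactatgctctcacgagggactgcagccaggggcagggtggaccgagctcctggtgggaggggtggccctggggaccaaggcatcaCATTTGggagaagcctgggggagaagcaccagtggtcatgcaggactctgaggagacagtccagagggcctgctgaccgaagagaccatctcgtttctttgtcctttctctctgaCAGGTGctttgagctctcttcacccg
Tnni2, fast troponin I, chr1:207024240-207024489, + strand: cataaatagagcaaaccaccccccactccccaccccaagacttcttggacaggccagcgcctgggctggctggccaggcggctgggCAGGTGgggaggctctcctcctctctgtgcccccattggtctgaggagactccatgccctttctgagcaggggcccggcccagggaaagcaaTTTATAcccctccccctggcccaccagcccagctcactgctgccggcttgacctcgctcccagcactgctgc
Myl3, slow essential light chain, chr8:119616844-119617093, + strand: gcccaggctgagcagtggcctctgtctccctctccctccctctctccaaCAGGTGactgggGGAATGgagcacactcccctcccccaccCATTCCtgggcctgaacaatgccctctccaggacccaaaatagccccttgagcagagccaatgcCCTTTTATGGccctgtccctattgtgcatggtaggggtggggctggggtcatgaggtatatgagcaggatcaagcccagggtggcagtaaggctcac
Myl1, fast essential light chain, start site 1, chr9:75907697-75907946, - strand: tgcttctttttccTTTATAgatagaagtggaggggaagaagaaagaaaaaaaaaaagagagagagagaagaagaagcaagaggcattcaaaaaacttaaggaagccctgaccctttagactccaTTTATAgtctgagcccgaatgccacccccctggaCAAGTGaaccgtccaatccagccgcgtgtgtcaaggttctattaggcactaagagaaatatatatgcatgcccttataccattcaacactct
Myl1, fast essential light chain, start site 2, chr9:75897800-75898049, - strand: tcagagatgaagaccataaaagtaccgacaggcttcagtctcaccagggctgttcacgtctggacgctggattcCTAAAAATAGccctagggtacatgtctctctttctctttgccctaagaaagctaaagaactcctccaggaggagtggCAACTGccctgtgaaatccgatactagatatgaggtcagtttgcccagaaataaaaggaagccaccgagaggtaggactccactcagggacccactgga

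An E-box was present in all 7 entries of the 6 genes, and in 65.5% of the 33469 upstream runs of this length in the table. TATAAA was present in 3 of the 7 entries, among them Tnni2 and the first start site of Myl1, against 12.9% of all runs. It began 30 bases before the start site in Tnnt1, whose run is not shown. In Tnni2 the match began 72 bases before it, and in Myl1 237 and 126 bases before it, all as TTTATA on the opposite strand. The search did not use position. The CArG motif and both matches to CATTCC lay in Myl3 alone among these entries, and the MEF2 motif lay only before the second start site of Myl1. These motifs are in 1.497%, 12.1% and 2.96% of all runs, respectively. The matches describe letters in these windows, and binding was not measured.

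Some libraries stood apart, and this bears on several values that follow. Total counts were 52342134 to 73557878 per library, and transcripts of 13 mitochondrially encoded genes accounted for 10.7% to 22.6%. Across the most abundant genes, pMT replicate 4 was nearer to pMT/VitD replicates 1 and 2 (spread of log2 ratios 0.158 and 0.211) than to the other pMT libraries (0.284 to 0.494), and it had the highest mitochondrial share. In the same measure pMT/VitD replicate 4 was nearer to pMT replicates 1 to 3 (0.176 to 0.227) than to its own group (0.337 to 0.441). It was about as near to control replicates 1 and 2 (0.155 and 0.191). The labels were kept as given, and whether pMT replicate 4 and pMT/VitD replicate 4 carry each other's labels was not tested. Values of both groups rest on this, so the main counts are also given without these 2 replicates. Counts of short against long genes also shifted between libraries. The rank correlation of a gene's deviation with its length (taken from its counts and TPM) ran from -0.389 in pMT/VitD replicate 1 to 0.445 in pMT replicate 3, and the 10 genes are short, with only 1.89% to 13.3% of tested genes shorter. Both surgery libraries were the most alike of all pairs, and they differed by 3.0 times the sampling noise. They were kept as 2 samples as labelled, and this spread does not show whether they came from separate rats.

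Fast isoforms were far more abundant than slow ones in every library. In TPM, the deposited measure per transcript length, Mylpf, the fast regulatory light chain, averaged 47500 over the 15 libraries and ranked 2 among all genes. Myl1 averaged 29248 TPM (rank 6), Tnnt3 (fast troponin T) 21271 TPM (rank 10), Tnnc2 (fast troponin C) 17873 TPM (rank 11) and Tnni2 16757 TPM (rank 12). The slow genes averaged 812 TPM for Tnni1, 815 TPM for Myl2 (slow regulatory light chain), 979 TPM for Tnnt1 (slow troponin T), 1076 TPM for Tnnc1 (slow troponin C) and 1194 TPM for Myl3. Their ranges over libraries overlap one another, from 557 to 1767 TPM in all, and the lowest value of any fast gene in any library was 15074 TPM (Tnni2). Together the 10 genes took 6.35% to 9.79% of all counts in a library, of which the slow genes took 0.217% to 0.386%. Skeletal muscle markers (8 of 8 detected) summed to 66223 to 103346 TPM, while cardiac markers summed to 37.4 to 71.6 TPM, with 3 of 7 at 0 in all libraries. Nearly all of the cardiac sum was Myh6, at a mean of 54.5 TPM. Tnnc1, Myl2 and Myl3 are also the cardiac forms, and bulk RNA does not separate more slow fibres from more RNA per slow fibre.

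The first comparison asks what the surgery did to these isoforms. Counts were divided by library sizes scaled with TMM factors (CPM), which allows one gene to be compared between libraries. Tnni1 was at 558 and 556 CPM in the control libraries and at 717 and 696 CPM in the surgery libraries. Tnni2, its fast partner, was at 9512 and 9347 CPM in control and at 7475 and 7319 CPM after surgery. Slow troponin I was thus higher and fast troponin I lower in both surgery libraries, with no overlap between the 2 groups.

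Among the other slow genes, Myl2 was at 286 and 308 CPM in control and at 416 and 418 CPM after surgery, and Tnnt1 was at 526 and 610 CPM and at 666 and 672 CPM. Myl3 went from 651 and 639 CPM to 756 and 744 CPM, and Tnnc1 from 332 and 322 CPM to 379 and 371 CPM. All 5 slow genes lay higher in both surgery libraries than in both control libraries. Of the fast genes, Tnnt3 was at 17335 and 18149 CPM in control and at 14483 and 14684 CPM after surgery, and Tnnc2 was at 9744 and 9676 CPM and at 8406 and 8174 CPM. Myl1 was at 19828 and 21673 CPM and at 17412 and 17567 CPM, and the difference was smallest in Mylpf, at 23190 and 22163 CPM and at 21456 and 21190 CPM. In CPM, all 5 fast genes lay lower in both surgery libraries. In TPM only Tnni2 did (17416 and 17150 in control, 17011 and 16665 after surgery). Mylpf (44700 and 42810 TPM, then 51399 and 50793 TPM) and Tnnc2 (16921 and 16836 TPM, then 18141 and 17650 TPM) lay higher, and Tnnt3 and Myl1 overlapped.

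**Figure D1:**
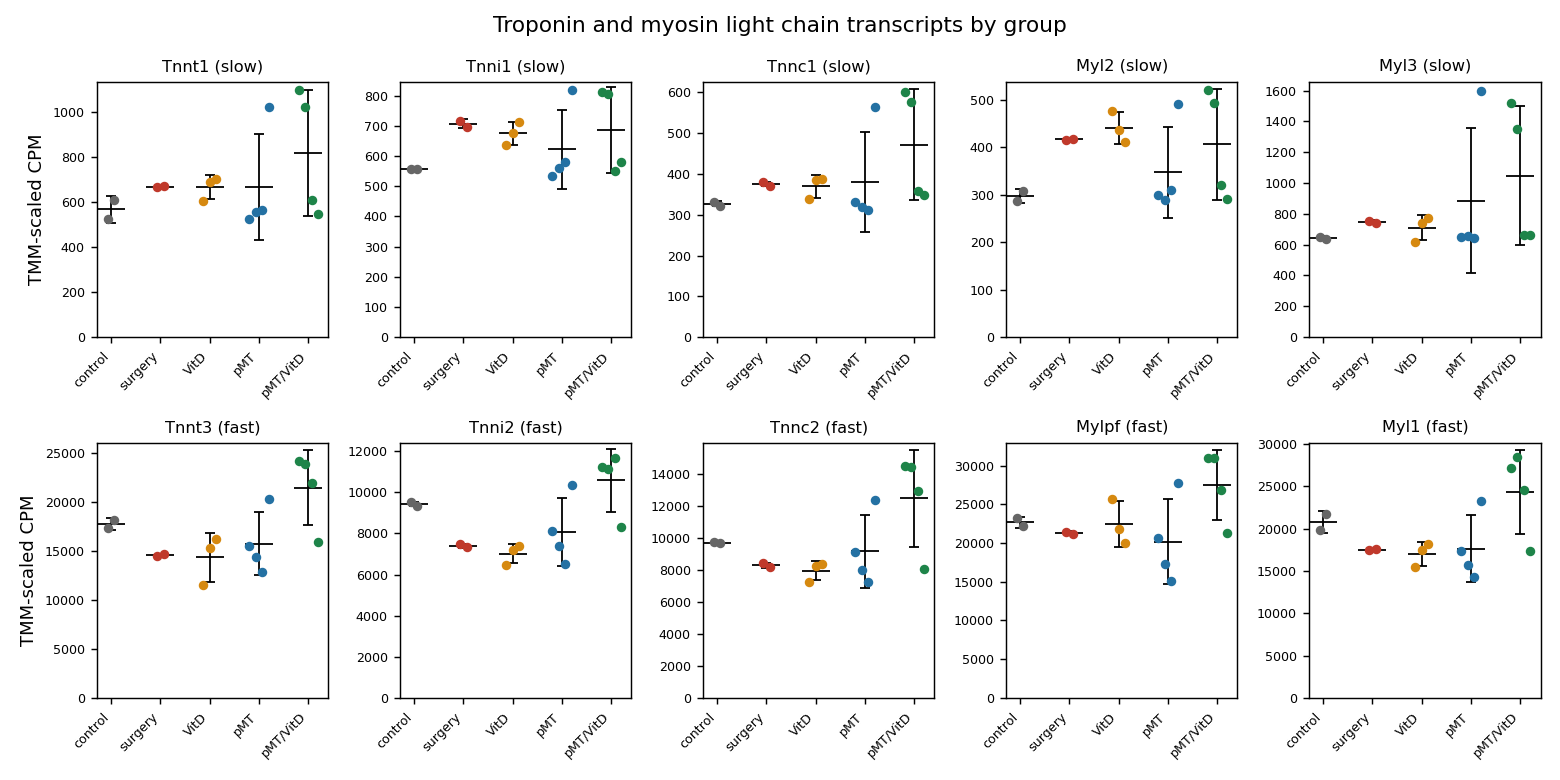
TMM-scaled CPM of the 10 genes by group on linear axes from 0, with slow genes in the upper row and fast genes in the lower row. Points are libraries, long bars group means and whiskers the SD (n = 2 control, 2 surgery, 3 VitD, 4 pMT, 4 pMT/VitD); slow genes are higher and fast genes lower in both surgery libraries than in control, and pMT replicate 4 lies above the other pMT libraries in every panel.

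None of the 10 passed the test in this comparison, in which 1.55% of all tested genes were called (edgeR's quasi-likelihood F-test, Benjamini-Hochberg adjusted p under 0.05). Log2 fold changes of the slow genes were 0.20 to 0.49 (median 0.24), and those of the fast genes -0.35 to -0.09 (median -0.25), against a median of -0.01 over all tested genes. The largest were 0.49 ± 0.29 (SE) for Myl2, with an adjusted p of 0.41, and -0.35 ± 0.23 for Tnni2, with an adjusted p of 0.466. Separation of the CPM values is common here, since 66.1% of all tested genes had groups that did not overlap between 2 and 2 libraries. A fit to the control and surgery libraries alone called 9 of the 10 genes, and 5289 of 16316 genes in all. With library totals in place of TMM factors every fold change shifts by 0.27, and Tnnc2, Mylpf and Myl1 then lay above control, at 0.039, 0.18 and 0.020.

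The ratio of slow to fast counts within a pair needs no scaling between libraries. In each of the 5 pairs it lay higher in both surgery libraries than in both control libraries, and it is given without a test. How often the ratios of other gene pairs separate between groups was not counted. Between control and surgery, single genes did so in CPM in 66.1% of all tested genes. For Tnni1/Tnni2 the log2 ratio was -4.09 and -4.07 in control and -3.38 and -3.39 after surgery, a difference of 0.69. Its slow partner made up 3.53% and 3.57% of the pair's TPM in control and 5.66% and 5.64% after surgery. The differences of the other pairs were 0.58 for Myl2/Mylpf, 0.52 for Tnnt1/Tnnt3, 0.46 for Myl3/Myl1 and 0.43 for Tnnc1/Tnnc2. When 1 library at a time was left out, the Tnni1/Tnni2 difference stayed between 0.68 and 0.70.

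**Figure D2:**
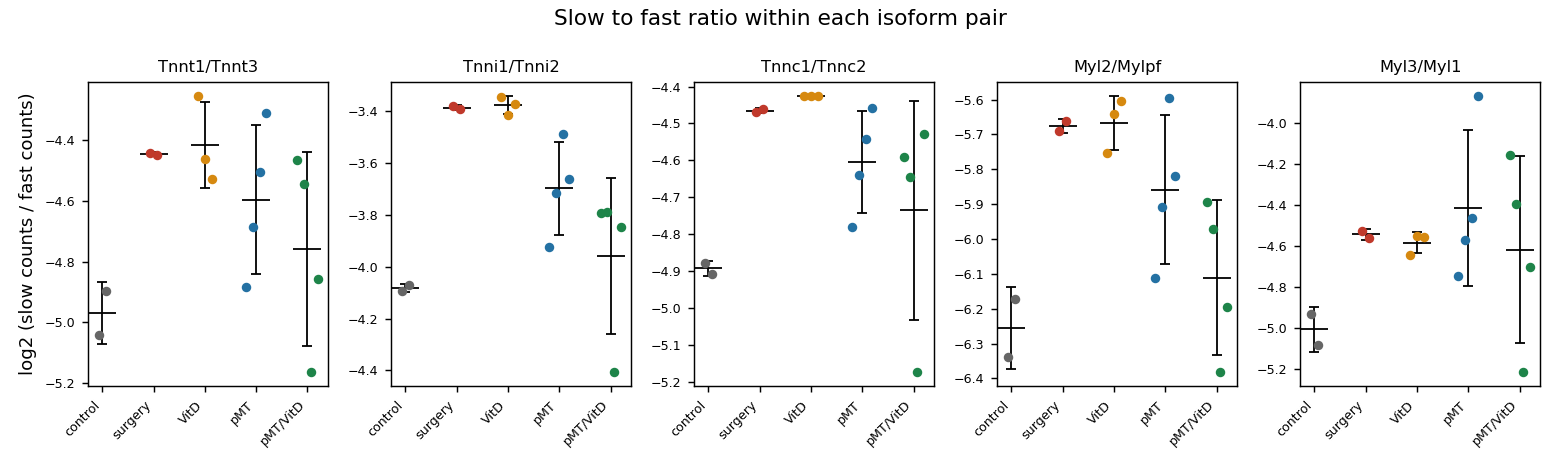
Log2 ratio of slow to fast read counts in each library for the 5 isoform pairs, with the group mean (long bar) and SD (whiskers); each panel has its own axis, which does not start at 0. Both surgery libraries lie above both control libraries in all 5 pairs, and VitD lies at the surgery level while pMT and pMT/VitD libraries spread between the control and surgery levels and, in some pairs, beyond them.

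Other contractile genes were examined as lists. Of 12 other fast fibre genes none was called after surgery, with a median log2 fold change of -0.44. Among the most abundant, Atp2a1, the calcium pump of fast fibres, was at -0.68 ± 0.31 (adjusted p 0.282), Tpm1 (alpha tropomyosin) at -0.35 ± 0.38, and Pvalb, a calcium-binding protein of fast fibres, at -0.23 ± 0.28. Of 12 other slow fibre genes, 11 were tested and none was called. Their median was 0.04, with Tpm3 (slow tropomyosin) at -0.05 ± 0.30, Mybpc1 (slow myosin-binding protein C) at 0.02 ± 0.36 and Fhl1 at 0.11 ± 0.30. Less abundant genes of this list differed more, in both directions. Casq2 averaged 76.3 CPM in control and 165 CPM after surgery, and Csrp3 176 and 360 CPM. Myh7b was lower after surgery, at 10.9 and 7.25 CPM. The list of 24 fibre type regulators had no call and a median of -0.12, with Rcan1, a known target of calcineurin signalling, at 0.53 ± 0.41 and Mef2c, a myogenic transcription factor, at -0.03 ± 0.18.

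One troponin outside the adult pairs did rise. Tnnt2, cardiac troponin T, which immature skeletal muscle also uses, was at 2.30 and 2.23 CPM in control and at 19.8 and 19.2 CPM after surgery. Its log2 fold change was 3.10 ± 0.63 (adjusted p 0.0324), and it was the only call among the 11 tested of 14 other troponin and light chain genes. Of the 3 not tested, Myl7 was at 0 in every library, Tnni3k had too few counts, and Myl6b has no row in the table. The most abundant of this list, the widely used light chains Myl12a, Myl6 and Myl12b, were at 0.55 ± 0.28, 0.46 ± 0.27 and 0.23 ± 0.19. Of 12 denervation genes 4 were called and all 4 were higher. They were Chrna1 and Chrng (acetylcholine receptor subunits), Myog (myogenin, a myogenic transcription factor) and Ncam1 (a cell adhesion molecule). Myog was at 20.5 and 18.3 CPM in control and at 48.7 and 46.6 CPM after surgery, a log2 fold change of 1.29 ± 0.20 (adjusted p 0.00817). Myh3, the embryonic myosin heavy chain, had a log2 fold change of 3.65 ± 0.87 that missed the threshold (adjusted p 0.0537), and Myh8, the perinatal heavy chain, was at -0.10 ± 0.58.

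**Figure D3:**
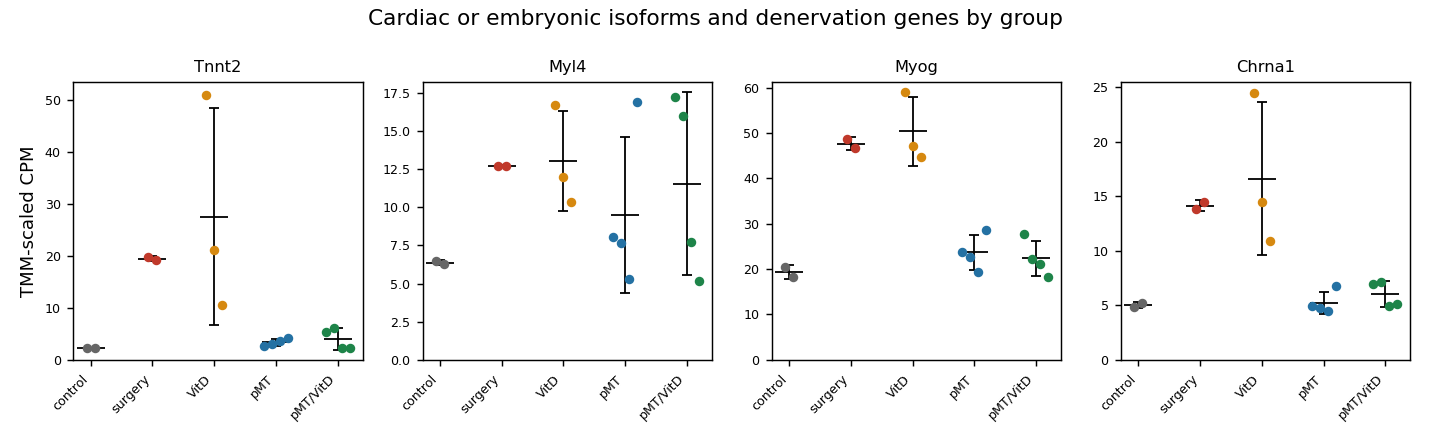
TMM-scaled CPM of Tnnt2, Myl4 (an embryonic and atrial light chain), Myog and Chrna1 by group on linear axes from 0; points are libraries, long bars means and whiskers SD. For Tnnt2, Myog and Chrna1 the surgery and VitD libraries lie above every library of the other groups, while Myl4 overlaps, with pMT replicate 4 and pMT/VitD replicates 1 and 2 about as high as VitD replicate 1.

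Summed TPM of markers of other cell types differed between control and surgery, though few of the markers were called in the test. Of 6 macrophage markers 2 were called higher. None of the fibroblast, adipocyte, smooth muscle, blood or tested cardiac markers was called. The 6 macrophage markers, all detected, summed to 162 to 172 TPM in control and to 436 to 437 TPM after surgery, and the 6 fibroblast markers to 1009 to 1063 TPM and 1871 to 1906 TPM. Sums of 6 adipocyte markers were 376 to 400 TPM and 689 to 707 TPM, and those of 5 smooth muscle markers 149 to 163 TPM and 221 to 230 TPM. The 7 cardiac markers, of which 3 were at 0, summed to 37.4 to 41.5 TPM in control and to 69.5 to 71.6 TPM after surgery. Nearly all of the cardiac sum was Myh6 (mean 54.5 TPM over the 15 libraries), with Tnni3 at 0.396 TPM and Mybpc3 at 0.158 TPM. Most of the adipocyte sum was Fabp4 (mean 602 TPM), with Adipoq at 14.0 TPM. Blood markers went the other way, from 773 to 812 TPM in control to 645 to 648 TPM after surgery. The part of all these markers in the fold changes was not tested.

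Next, the pMT group was set against surgery to ask what the mitochondria did. In CPM, slow genes showed a common arrangement in the 4 pMT libraries, with 3 near the control level and 1 far above. Tnnt1 was at 523, 557, 566 and 1021 CPM in pMT replicates 1 to 4, and Myl3 at 646, 658, 645 and 1594 CPM. Tnni1 was at 534, 561, 578 and 817 CPM. In CPM, replicates 1 to 3 lay below both surgery libraries in all 5 slow genes. Replicate 4 lay above them, so that the groups overlapped in every one. In TPM all 4 pMT libraries lay below both surgery libraries in Tnni1 (692 to 877 against 997 to 1021) and Myl2 (660 to 801 against 1010 to 1017). Tnnc1 was just below as well (956 to 1180 against 1181 to 1206). Replicate 4 was level with surgery in Tnnt1 (1103 against 1096 and 1106) and above it in Myl3 (1767 against 1273 and 1250).

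In the fast genes the 4 pMT libraries ran on both sides of surgery. Tnni2 was at 8120, 7382, 6491 and 10355 CPM, and Mylpf at 20660, 17331, 15043 and 27707 CPM. None of the 10 genes was called between pMT and surgery, where 1.94% of all tested genes were. None of the 10 had separate groups in CPM, against 30.4% of all tested genes. Log2 fold changes were -0.26 to 0.24 in slow genes and -0.08 to 0.15 in fast genes. With library totals in place of TMM factors every fold change shifts by -0.15. Without pMT replicate 4, 6 of the 10 fold changes turned negative, among them Myl3, from 0.24 ± 0.39 to -0.21.

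The Tnni1/Tnni2 ratio was below surgery in all 4 pMT libraries, at -3.93, -3.72, -3.49 and -3.66 on the log2 scale, with a mean of -3.70 ± 0.18 (SD, n = 4) between those of control (-4.08) and surgery (-3.39). It was the only pair of the 5 in which pMT and surgery did not overlap, and other gene pairs were not counted. In the Myl3/Myl1 pair the pMT mean of -4.41 ± 0.38 was above the surgery mean of -4.54, since replicate 4 reached -3.87. Relative to surgery, Tnnt2 fell by 2.53 on the log2 scale in pMT (SE 0.48, adjusted p 0.019), to 2.59 to 4.23 CPM. It was the only call in its list, while 7 of the 12 denervation genes were lower, with Myog at -1.01 ± 0.16 (adjusted p 0.00744). No gene was called in the lists of other slow fibre genes, other fast fibre genes and regulators. Macrophage markers summed to 126 to 239 TPM and fibroblast markers to 823 to 1439 TPM in the pMT libraries, below the surgery group, and their part was not tested.

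With vitamin D alone the isoforms stayed close to surgery. Tnni1 was at 637, 674 and 712 CPM and Tnni2 at 6476, 7199 and 7369 CPM in VitD replicates 1 to 3. Log2 fold changes against surgery were -0.08 to 0.08 over the 10 genes. Their 95% intervals reached from -0.51 to 0.37 for Tnni1 and from -0.96 to 0.80 for Myl3, so a moderate difference could not be seen at this size. None was called, as was the case for 0% of all tested genes (139 had an unadjusted p under 0.05; DESeq2 called 1 and limma voom 405). The CPM ranges of the groups overlapped in all 10 genes, and 15.8% of all tested genes had groups that did not overlap. Pair ratios were also near those of surgery, with Tnni1/Tnni2 at -3.38 ± 0.04 (SD, n = 3) against -3.39. The VitD group was low in Tnnt3 in replicate 1 alone (11540 CPM, against 15252 and 16237 CPM), and this library also had the highest Tnnt2 (51.0 CPM) and Myh3 (993 CPM) of all 15. Against control, VitD resembled surgery in size, with log2 fold changes of 0.14 to 0.57 in slow genes and -0.43 to -0.01 in fast genes and no call, where 8.67% of all tested genes were called. Groups did not overlap in 7 of the 10 genes, 3 slow ones higher and 4 fast ones lower, against 52.1% of all tested genes.

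**Figure D4:**
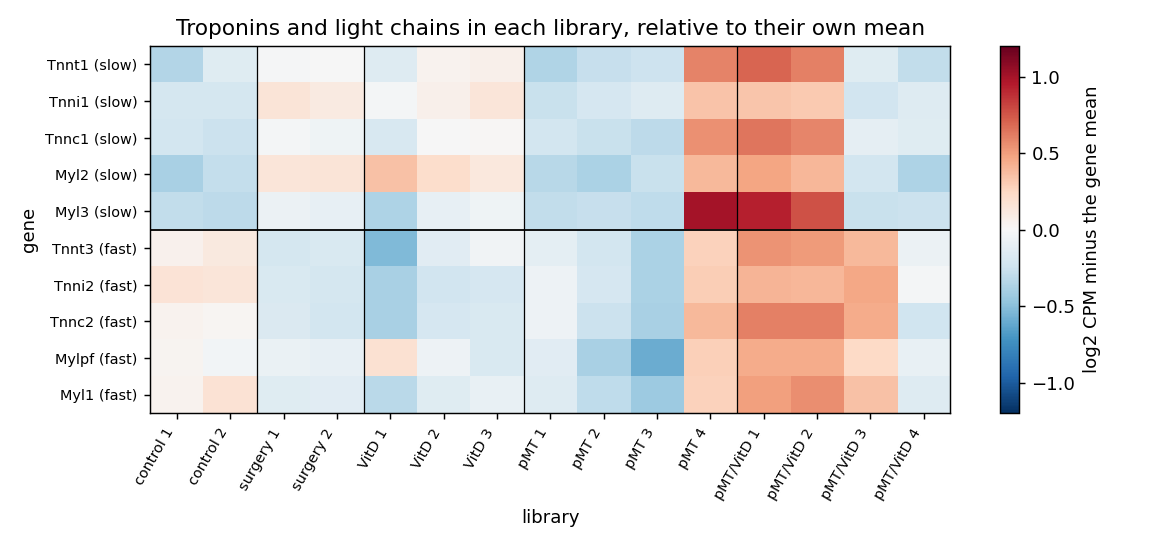
Each of the 10 genes in each of the 15 libraries as log2 CPM minus the gene's mean over libraries; red is above and blue below that mean. pMT replicate 4 and pMT/VitD replicates 1 and 2 are above the mean in all 10 genes, and pMT/VitD replicate 3 is above it in the fast genes only.

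In TMM-scaled CPM, mean levels of all 5 fast isoforms were highest in the pMT/VitD group. In TPM this did not hold for Mylpf, whose mean was 48225 in pMT/VitD, 51096 in surgery and 54050 in VitD. Tnni2 was at 11234, 11127, 11658 and 8330 CPM in replicates 1 to 4, and Tnnc2 at 14479, 14427, 12917 and 8063 CPM. Tnnt3 was at 24205, 23826, 21889 and 15878 CPM. In all 5 fast genes replicates 1 to 3 were above every surgery library, and replicate 4 was the lowest of its group.

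The slow genes divided the same 4 libraries differently. Tnnt1 was at 1096, 1021, 611 and 548 CPM, and Myl3 at 1518, 1351, 661 and 665 CPM, so that replicates 1 and 2 were high and replicates 3 and 4 lay near control. Replicate 3 therefore had high fast and low slow transcripts, and its Tnni1/Tnni2 ratio of -4.41 was the lowest of all libraries, below both control libraries. In CPM, high slow genes were seen in pMT replicate 4 and pMT/VitD replicates 1 and 2. These libraries had the 3 lowest correlations with gene length (-0.317, -0.389 and -0.383) and mitochondrial shares of 22.6%, 17.7% and 13.5%. The part of these correlations and shares in the values was not tested. In TPM, Myl3 was also highest in these 3 libraries (1767, 1700 and 1587). Tnni1 (764, 769 and 801 TPM) and Myl2 (784, 840 and 835 TPM) were lower there than in every surgery or VitD library.

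Against surgery, none of the 10 genes was called, where 7.44% of all tested genes were. Fast genes had log2 fold changes of 0.37 to 0.59, and 3 of the 5 (Tnnt3, Tnni2 and Tnnc2) had an unadjusted p under 0.05, as did 24.8% of all tested genes. The largest was 0.59 ± 0.25 for Tnnc2 (adjusted p 0.164). Slow genes ranged from -0.04 to 0.48. In CPM, groups did not overlap in 2 fast genes, Tnnt3 and Tnni2, against 36.8% of all tested genes. With library totals in place of TMM factors every fold change shifts by -0.33, which left the fast genes at 0.03 to 0.25. Slow Tnnt1 and Tnnc1 were then at -0.052 and -0.012. With the gene length trend removed the fast genes were at 0.11 to 0.41. In TPM every pMT/VitD library lay below both surgery libraries in Tnni1 (557 to 801 against 997 to 1021) and Myl2 (558 to 840 against 1010 to 1017). Replicates 1 and 2 lay above both surgery libraries in TPM in Tnnt1, Tnnc1 and Myl3. Without both pMT replicate 4 and pMT/VitD replicate 4, 4 of the 10 genes were called, and 3462 of 17182 in all. Other lists moved with this comparison. All 6 macrophage markers, 4 of 6 fibroblast markers and 8 of 12 denervation genes were lower in pMT/VitD, and 1 of 3 blood markers was higher. Macrophage markers summed to 120 to 206 TPM against 436 to 437 TPM in surgery, fibroblast markers to 675 to 1191 TPM against 1871 to 1906 TPM, and blood markers to 563 to 1464 TPM against 645 to 648 TPM, and their part was not tested. The ratio of slow to fast counts was lower than in surgery in all 4 libraries for 4 of the 5 pairs, by 0.57 on the log2 scale for Tnni1/Tnni2, 0.43 for Myl2/Mylpf, 0.31 for Tnnt1/Tnnt3 and 0.27 for Tnnc1/Tnnc2. In Myl3/Myl1 the groups overlapped, with a difference of -0.07, and other gene pairs were not counted. Replicate 3 weighed on these values, and without it the differences were -0.18 for Tnnt1/Tnnt3, -0.12 for Tnnc1/Tnnc2 and 0.12 for Myl3/Myl1.

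Vitamin D with and without pMT gave the only calls. Between pMT/VitD and VitD, 2 of the 10 genes were called, both fast and both higher with pMT, while 21.9% of all tested genes were called. Tnni2 had a log2 fold change of 0.59 ± 0.18 (adjusted p 0.0272) and Tnnc2 one of 0.65 ± 0.22 (adjusted p 0.0489). Tnnt3 was at 0.58 ± 0.20 (adjusted p 0.0525), Myl1 at 0.52 ± 0.20 (adjusted p 0.0828) and Mylpf at 0.29 ± 0.21 (adjusted p 0.352). The share of the 10 genes called was thus near that of all tested genes. Only Tnni2 had separate groups, with 28.6% of all tested genes in that state. Both calls were lost without pMT/VitD replicate 1, 2 or 3, or without VitD replicate 1 or 2, and 1 was lost without VitD replicate 3. Without pMT/VitD replicate 4, 4 of the 10 genes were called, and 4561 of 17206 in all. With library totals every fold change shifts by -0.35, both calls were lost (Tnni2 0.24, adjusted p 0.115; Tnnc2 0.29, adjusted p 0.163), and slow Myl2 was called lower (-0.48, adjusted p 0.0459). With the gene length trend removed, Tnni2 was no longer called (0.30, adjusted p 0.0533), while Tnnt3 was called higher (0.40, adjusted p 0.0449) and Myl2 lower (-0.44, adjusted p 0.0158). Without both pMT replicate 4 and pMT/VitD replicate 4, 6 of the 10 genes were called, and 5497 of 17182 in all.

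In the same comparison, where 21.9% of all tested genes were called, 3 of the 12 other fast fibre genes were called higher. They were Tpm1 (0.95 ± 0.30, adjusted p 0.0331), Myh4 (the fastest adult myosin heavy chain) and Myoz1 (a Z-disc protein of fast fibres). The list's median log2 fold change was 0.66, against 0 over all genes. Of 11 tested other slow fibre genes Myh7b (a slow-type heavy chain) was higher, and Casq2 (calsequestrin of slow and cardiac muscle) and Csrp3 (muscle LIM protein) were lower. Tnnt2 fell by 2.77 on the log2 scale (SE 0.45, adjusted p 0.00141), Myl9, a smooth muscle light chain, was also lower, and 9 of the 12 denervation genes were lower. Of the 24 regulators, Vgll2 and Ppard were higher and Vgll3, Rcan1 and Hdac9 lower. In the fast fibre, slow fibre and regulator lists the share called was near that of all tested genes. All 6 macrophage markers and 5 of 6 fibroblast markers were lower in pMT/VitD, with sums of 120 to 206 TPM and 675 to 1191 TPM against 350 to 640 TPM and 1669 to 2910 TPM in VitD, and their part was not tested.

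**Figure D5:**
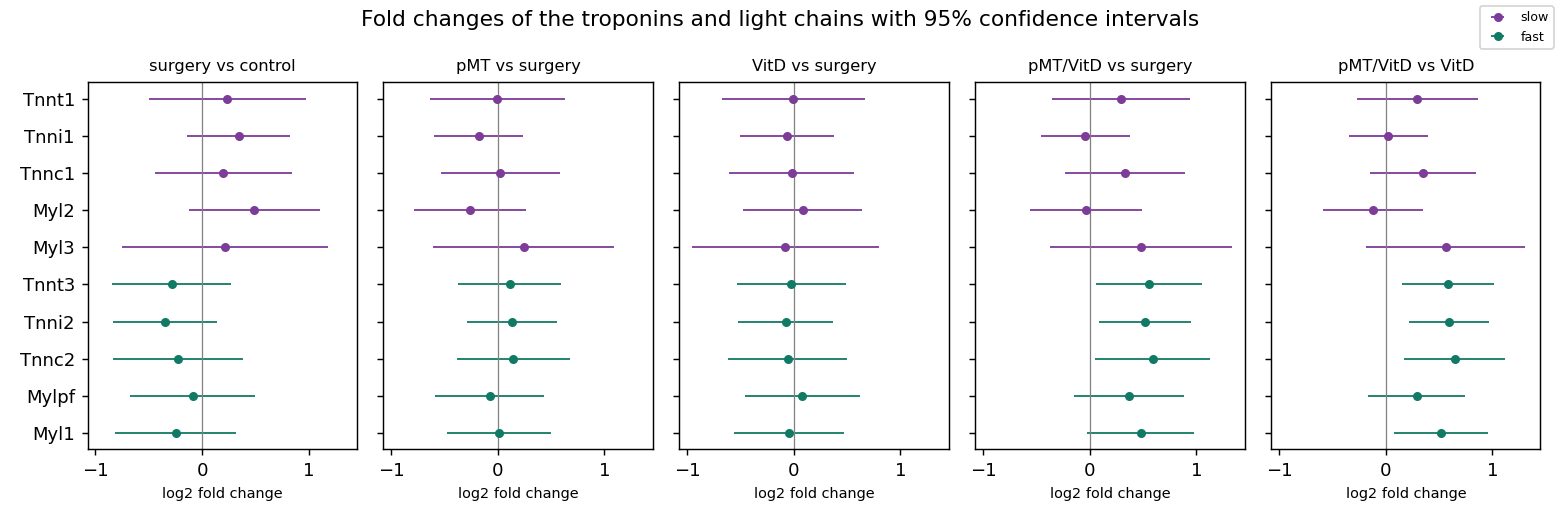
Log2 fold changes of the 10 genes in 5 comparisons with 95% confidence intervals (points are estimates, bars intervals, purple slow and green fast genes; edgeR fit to all 15 libraries). Intervals include 0 for all 10 genes in the first 3 comparisons, while those of Tnnt3, Tnni2 and Tnnc2 lie above 0 against surgery and those of Tnnt3, Tnni2, Tnnc2 and Myl1 against VitD before any adjustment over genes.

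Adding vitamin D to pMT was tested between pMT/VitD and pMT. No gene of the 10 was called, as for 0% of all tested genes (1737 had an unadjusted p under 0.05; DESeq2 called 58 and limma voom 6617). All 5 fast genes had an unadjusted p under 0.05, with log2 fold changes of 0.39 to 0.47 and adjusted p of 0.467 to 0.489, and 10.1% of all tested genes had such a p. Slow genes were at 0.14 to 0.31. No groups were separate, against 4.86% of all tested genes. Left without pMT replicate 4 and pMT/VitD replicate 4, the fit called 9 of the 10 genes, and 3136 of 17182 in all. The effect of pMT with vitamin D minus that without it was 0.15 to 0.51 on the log2 scale over the 10 genes, with adjusted p of 0.899 to 0.969. No gene was called in that test (888 had an unadjusted p under 0.05; it was run with edgeR's quasi-likelihood test only).

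The treated groups were also set against control. For pMT none of the 10 genes was called, as for 0% of all tested genes (528 with an unadjusted p under 0.05; DESeq2 called 0 and limma voom 231), with log2 fold changes of 0.16 to 0.46 in slow genes and -0.23 to -0.08 in fast genes. No groups were separate, against 15.2% of all tested genes. For pMT/VitD none was called either, as for 0% of all tested genes (496 with an unadjusted p under 0.05; DESeq2 called 0 and limma voom 1865). There both classes were above control, slow genes by 0.30 to 0.70 and fast genes by 0.17 to 0.36 on the log2 scale. In 2 slow genes the groups did not overlap, against 9.2% of all tested genes. These comparisons share control and surgery libraries, so their values are given side by side only. The test for any difference among the 5 groups called none of the 10 genes, where it called 11.8% of all tested genes. Its lowest adjusted p among them was 0.128, for Tnni2.

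Within each class the genes ran more alike across libraries than a slow and a fast gene did on the whole, though the ranges overlap. The root mean square difference between the centred log2 CPM of pairs of fast genes was 0.073 to 0.215, and Mylpf was the farthest from the others. Pairs of slow genes differed by 0.081 to 0.318, with Tnnt1 and Tnnc1 the closest and Myl2 and Myl3 the farthest apart. A slow and a fast gene differed by 0.207 to 0.392. These are descriptions over 15 libraries that share depth and gene length effects.

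Among 7785 genes whose log2 CPM averaged 3 or more, leaving the 10 genes themselves aside, those nearest to the mean of the slow genes were Ky (0.111), Emc2 (0.122), Eif5b-ps1 (0.129), Myoz2 (0.134) and Stbd1 (0.14), against a median of 0.375. Apart from the 10 genes, those nearest to the mean of the fast genes were Cav3 (0.0409), Fam96b (0.0446), Tpt1 (0.0597), LOC679739 (0.0624) and Ybx1 (0.0633), with a median of 0.337. Eif5b-ps1 and LOC679739 carry the names of a pseudogene and an uncharacterised locus, so reads shared with near-identical copies make them uncertain. In the GRCr8 gene order 2 of the 10 genes lie beside troponin genes of other types: Tnni3, cardiac troponin I, is a neighbour of Tnnt1, and Tnnt2 lies 2 genes beyond Tnni1. Tnni3 had 0 to 41 counts per library (at most 0.886 CPM), and its highest values were in pMT replicate 4 and pMT/VitD replicate 1.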

How the data were processed

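Paired-end NovaSeq reads were made from multifidus RNA in 15 libraries, grouped by their labels. By the submitters' processing notes, Trimmomatic (0.38) was used for trimming, HISAT2 (2.1.0) for alignment to rn6, SAMtools (1.9) for sorting and StringTie (2.1.3b) for quantification. The authors deposited whole read counts per gene without normalization, TPM values, and FPKM values in 15 columns not used here. How strand and reads aligning to several genes were handled is not given in the sources used here. Counts were tested in R (4.3.3) with edgeR's quasi-likelihood F-test (4.0.16; TMM factors, filterByExpr, robust fit to all 15 libraries) for 9 comparisons and for any difference among groups. The threshold was an adjusted p (Benjamini-Hochberg) of 0.05. SE and 95% intervals come from this fit. TPM served for levels between genes. P-values measure the spread between libraries, since separate rats are not stated. Library spread used genes with a mean count of at least 1000. Alternatives included DESeq2 (1.42.0), limma voom (3.58.1), other scalings and filters, and left-out libraries. The genes and lists were chosen with earlier results of these data known. Within the lists, the 3 most abundant tested genes and the called genes were named, at most 4 per list, except that 1 gene is not reported here; further called genes, pair members, Myl4, Chrna1 and Tnni3 were named after their values were seen. The test was checked on simulated counts.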

Additional observations from a re-analysis of the deposited data

Results flagged for a closer look

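Of 30 gene or ratio values tested in groups of 4 libraries, 7 had 1 library far from the others by Dixon's criterion, and chance gives about 1.5. In TMM-scaled CPM, pMT replicate 4 stood above the other 3 of its group in all 5 slow genes, but in TPM not in Tnni1 and Myl2. Tnnt1 was at 1021 CPM (others 523 to 566), Tnni1 at 817 CPM (534 to 578) and Tnnc1 at 564 CPM (311 to 331). Myl2 was at 491 CPM (289 to 311) and Myl3 at 1594 CPM (645 to 658). In the pMT/VitD group replicate 4 had a low Tnni2, 8330 CPM against 11127 to 11658 CPM. Replicate 3 of that group had a log2 Tnni1/Tnni2 count ratio of -4.41, against -3.85 to -3.79 in the others. The 5 slow genes share their library, so these flags are not independent of each other.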

How the results depend on the processing

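The counts of called genes changed with the tool, the libraries in the fit and the scaling. Counts in brackets are those over all tested genes. With limma voom and quality weights 3 of the 10 genes were called between surgery and control (4938 of 17201) and 3 between pMT and surgery (6480). It called 8 between pMT/VitD and surgery (6800), 10 between pMT/VitD and pMT (6617) and 8 between pMT/VitD and VitD (8406). Between VitD and control 3 were called (6447), between pMT/VitD and control 6 (1865) and among the 5 groups 10 (11466). DESeq2 called 2 (pMT/VitD against surgery, 2196 of 17201 in all), 4 (pMT/VitD against VitD, 4635) and 3 (any difference, 3708). With library totals the counts were 1 (pMT/VitD against VitD, 5758 of 17201 in all), 2 (VitD against control, 2795) and 2 (any difference, 3579). With any count allowed the count was 1 (pMT/VitD against VitD, 3241 of 24728 in all). With the gene length trend removed the counts were 1 (VitD against control, 2375 of 17201 in all) and 1 (any difference, 2764). Fits to only the groups compared called 9 genes between surgery and control (5289 of 16316 in all) and 0 between pMT/VitD and VitD (1816 of 16142). Without pMT replicate 4 and pMT/VitD replicate 4, 4 genes were called between pMT/VitD and surgery (3462 of 17182 in all) and 9 between pMT/VitD and pMT (3136). In that fit 6 were called between pMT/VitD and VitD (5497), 1 between VitD and control (2589) and 9 among the 5 groups (5125). When 1 library at a time was left out, counts were 0 to 4 between pMT/VitD and VitD, where 1855 to 4561 genes were called in all. Counts were 0 to 1 between pMT/VitD and surgery (1 without pMT/VitD replicate 4, with 2199 of 17206 called in all). Among the 5 groups they were 0 to 1. The 1 came without pMT replicate 4 (2698 called in all) or pMT/VitD replicate 4 (2754 called in all). The cause of these changes was not tested.

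Deviations of same-numbered libraries of different groups had correlations from -0.888 to 0.367 (24 pairs, 7 above 0.1). Those of differently numbered libraries ran from -0.754 to 0.850 (64 pairs, 12 above 0.1). The value of -0.888 was between pMT replicate 4 and pMT/VitD replicate 4. Such correlations cannot show whether the numbers mark samples handled together, and the main fit did not use the numbers. With the replicate number as a block, 0 genes were called between pMT/VitD and VitD, and Myl2 (pMT/VitD against surgery, 0.0098) and Tnni1 (pMT/VitD against VitD, -0.016) changed sign; the other counts among the 10 genes stayed at 0. Over all tested genes the block took the count of called genes from 266 to 106 between surgery and control, from 334 to 78 between pMT and surgery, from 1279 to 350 between pMT/VitD and surgery, from 3766 to 2705 between pMT/VitD and VitD, and from 2035 to 1080 among the 5 groups. When 1 library was left out, the surgery minus control differences of the pair ratios stayed positive, from 0.39 (Myl3/Myl1) to 0.70 (Tnni1/Tnni2), as they did with TPM or with the gene length trend removed. The differences of pMT/VitD and surgery ran from -0.63 to -0.42 for Tnni1/Tnni2, -0.51 to -0.34 for Myl2/Mylpf, -0.41 to -0.18 for Tnnt1/Tnnt3, -0.34 to -0.12 for Tnnc1/Tnnc2 and -0.23 to 0.12 for Myl3/Myl1, the last of each without pMT/VitD replicate 3. With 2 to 4 libraries a group, the spread between libraries sets the width of the intervals.

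Small log2 fold changes changed sign, none of them a called one. With library totals, they were 0.039 for Tnnc2, 0.18 for Mylpf and 0.020 for Myl1 in surgery against control, -0.16 for Tnnc1, -0.057 for Tnnt3, -0.037 for Tnni2, -0.025 for Tnnc2 and -0.16 for Myl1 in pMT against surgery, -0.052 for Tnnt1 and -0.012 for Tnnc1 in pMT/VitD against surgery, -0.061 for Tnnt1, -0.33 for Tnni1, -0.0065 for Tnnc1 and -0.072 for Mylpf in pMT/VitD against VitD. With voom, they were -0.21 for Tnnc1, -0.16 for Myl3, -0.012 for Tnnt3, -0.031 for Tnnc2 and -0.14 for Myl1 in pMT against surgery, 0.092 for Tnni1 and 0.15 for Myl2 in pMT/VitD against surgery, 0.094 for Myl2 in pMT/VitD against VitD. With the gene length trend removed, they were -6.5e-05 for Tnnc1 in pMT/VitD against surgery, -0.14 for Tnni1, -0.051 for Tnnc1 and -0.0071 for Mylpf in pMT/VitD against VitD. Over settings that left out 1 library or both replicates 4, the range in pMT against surgery was -0.30 to 0.095 for Tnnt1, -0.24 to 0.11 for Tnnc1, -0.22 to 0.37 for Myl3, -0.051 to 0.19 for Tnnt3, -0.026 to 0.22 for Tnni2, -0.048 to 0.24 for Tnnc2, -0.28 to 0.039 for Mylpf and -0.17 to 0.10 for Myl1. Over settings that left out 1 library or both replicates 4, the range in pMT/VitD against surgery was -0.13 to 0.050 for Tnni1 and -0.18 to 0.086 for Myl2. Over settings that left out 1 library or both replicates 4, the range in pMT/VitD against VitD was -0.066 to 0.12 for Tnni1 and -0.26 to 0.0034 for Myl2.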
